A study of Mus musculus with 9 samples.

Results

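Lysosome and autophagy genes were followed across 9 Smart-seq2 libraries of mouse spinal motoneurons. Genes were taken by symbol: the cathepsins, the lysosomal membrane proteins Lamp1 and Lamp2, the subunits and accessory proteins of the vacuolar proton pump, the Atg genes, the LC3 and GABARAP genes, and Becn1, Ulk1, Ulk2, Sqstm1 and Tfeb. This gave 76 of the 55401 genes in the deposited table, namely 18 cathepsin genes, 2 lysosomal membrane genes, 27 proton pump genes and 29 autophagy genes. All mice were wild type, and the labels place 3 libraries in each group. Sham mice received no treatment, per the labels. Untrained mice had a spinal cord injury. SBES mice had the injury and synergistic bidirectional electrical stimulation, at 10 Hz in library 1, 15 Hz in library 2 and 20 Hz in library 3, so a frequency cannot be told apart from a single library. In all groups, motoneurons carrying a fluorescent label, TRDA, were drawn into glass electrodes from slices of fresh cord 4 weeks after injury. Each library title ends in scRNAseq. No label links a library to a single mouse or says how many neurons went into it. Whether a library is a single cell or a pool is therefore unknown. The p-values measure the spread between libraries, which may in part be technical or a spread between single cells.

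Lysosomes are acidic compartments in which proteins, lipids and worn-out organelles are broken down. Cathepsins are their proteases, the vacuolar proton pump acidifies the lumen through a membrane sector called V0 and a catalytic sector called V1, and LAMP proteins coat the inner face of the membrane. In autophagy, the ULK kinases start a membrane that ATG proteins extend and on which LC3 and GABARAP proteins are fixed, and the finished vesicle fuses with a lysosome. TFEB is a transcription factor that switches on many of these genes by binding a short promoter element called CLEAR. In the spinal cord, microglia are known for high cathepsin levels, and long-lived neurons depend on autophagy for clearing their axons and cell bodies.

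The promoters of some of these genes carry that element, and they are shown because this is the sequence through which TFEB is known to reach lysosomal genes. RefSeq promoter entries on GRCm38.p6, from 250 bases before to 50 bases after a start site, were found for 59 of the 76 genes. The 8 letters TCACGTGA, a core of the CLEAR element that reads the same on both strands, occurred in the entries of 6 of these 59 genes, or 10.2%, and in those of 304 of all 27025 genes, or 1.13%. The shorter CACGTG, which lies within it, occurred in 13 of the 59 (22.0%) and in 2187 of all genes (8.09%). A match is a description of the letters and not evidence that a factor was bound. The 6 promoters follow, 5′ to 3′ on the strand of the gene, with the 8 letters in capitals and 30 bases on each side; Ctsa holds the letters again, in lower case, further along the same window.
Ctsd, the aspartic protease cathepsin D, chr7:142387889-142387956 (-): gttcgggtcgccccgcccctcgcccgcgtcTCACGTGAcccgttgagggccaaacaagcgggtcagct
Ctsa, the protective protein of lysosomal galactosidase, chr2:164833730-164833797 (+): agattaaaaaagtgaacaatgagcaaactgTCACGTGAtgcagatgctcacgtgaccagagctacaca
Atp6v0d1, a V0 subunit, chr8:105566031-105566098 (-): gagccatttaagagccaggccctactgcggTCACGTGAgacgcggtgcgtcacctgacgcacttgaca
Atp6v0e, a V0 subunit, chr17:26676368-26676435 (+): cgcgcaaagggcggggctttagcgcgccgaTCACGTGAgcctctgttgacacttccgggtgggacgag
Atp6v1a, the catalytic V1 subunit, chr16:44139354-44139421 (-): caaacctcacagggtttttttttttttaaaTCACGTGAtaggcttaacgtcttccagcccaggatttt
Atg3, the enzyme that couples LC3 to lipid, chr16:45158727-45158794 (+): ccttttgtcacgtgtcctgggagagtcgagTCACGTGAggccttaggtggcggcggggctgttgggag

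Total counts ran from 11821145 to 17675948 per library, and the 76 genes took 1.13% to 1.87% of them. Libraries numbered 1 stood apart in each group. Malat1, a nuclear noncoding RNA, was at 20800, 15270 and 6279 CPM in sham 1, untrained 1 and SBES 1, and at 465 to 1487 CPM in the other libraries. CPM (counts scaled to a common library total) were computed after scaling by the trimmed mean of M values (TMM), whose factors were 0.727 in sham 1, 0.760 in SBES 1 and 1.02 to 1.16 elsewhere. All 11 motor neuron markers were counted in every library, and Chat, the enzyme that makes acetylcholine, was at 19.6 to 34.5 CPM. Markers of other cells were counted too: all 15 microglia markers, all 10 oligodendrocyte and myelin markers and all 8 astrocyte markers had counts in every library. The oligodendrocyte markers summed to 38600 to 109500 CPM and the motor neuron markers to 284 to 1213 CPM. In untrained against sham, 10 of 11 motor neuron markers and all 10 oligodendrocyte markers had negative log2 fold changes (medians -0.39 and -0.55). None passed edgeR's threshold, nor did any other gene. A second test, DESeq2, called 1 motor neuron marker, beside 0.0857% of the genes it tested. In SBES against sham, 8 of 11 motor neuron markers were negative and all 8 endothelial and pericyte markers were positive (median 0.59). Of these markers edgeR called 1, a motor neuron marker that was lower, beside 0.346% of all genes. DESeq2 called 3 motor neuron markers and 2 endothelial and pericyte markers, beside 1.8% of the genes it tested. The part of these cell types in the results below was not tested. Where a library holds more than a single cell, fewer cells of a type and less RNA per cell cannot be told apart.

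Most of these genes were well expressed, and their levels differed widely between genes. A count filter kept 63 of the 76 genes (14 cathepsin, 2 lysosomal membrane, 19 proton pump, 28 autophagy) among 15893 tested. Ctsj, Ctsq and Atp6v1g3 had no count in any library. Levels of different genes are compared here by the deposited FPKM, counts scaled by exon length and library total, which is not scaled by TMM. Map1lc3a, which encodes the LC3A protein of autophagosome membranes, had the highest mean FPKM of the autophagy genes at 941 ± 225 (SD, n = 9 libraries), followed by Gabarapl1 at 353 ± 84.6, the cargo receptor gene Sqstm1 at 230 ± 53.3 and Gabarap at 167 ± 38.7. The pump was led by the V1 subunit gene Atp6v1f at 537 ± 82.0 FPKM, then Atp6v1g1 at 323 ± 83.6, Atp6v0e2 at 284 ± 54.9 and Atp6v0b at 270 ± 69.7. Among the cathepsins, Ctsd averaged 434 ± 185 FPKM, the microglial protease gene Ctss 296 ± 128, Ctsb 229 ± 57.6 and Ctsz 171 ± 75.7. By FPKM, Map1lc3a and Atp6v1f led their groups by more than the SD of either neighbour. FPKM divides by exonic length, which is 1181 bases for Map1lc3a and 7517 for Map1lc3b. Mean CPM of Map1lc3a and Map1lc3b were 1110 and 1106 in sham, 921 and 999.6 in untrained, and 1306 and 1084 in SBES. The lead of Map1lc3a over Map1lc3b thus rests on length scaling. Among the cathepsins, the ranges of mean ± SD of Ctsd, Ctss and Ctsb meet. Ctsl (41.1 ± 13.5) and Atp6v0a1 (10.8 ± 2.92) lay well below these genes. Lamp1 was at 284 ± 65.8 FPKM and Lamp2 at 9.84 ± 2.20. The kinase genes Ulk1 and Ulk2 (2.25 ± 0.644 and 1.79 ± 0.299 FPKM), Tfeb (3.28 ± 1.37) and Becn1 (10.9 ± 2.91) lay far below the genes of the LC3 and GABARAP proteins. Ctsm, Ctsr, Atp6v0a4, Atp6v1fnb and the pseudogene Atp6v0c-ps1 reached at most 3 counts in a library, and Atg4a-ps, Atp6v0d2, Atp6v1b1, Atp6v1c2 and Atp6v1e2 at most 37; none of these passed the filter. Reads of Atp6v0c, the proton-carrying ring subunit, and of its processed pseudogene Atp6v0c-ps2 may be split between near-identical copies, so both values are uncertain.

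**Figure D1:**
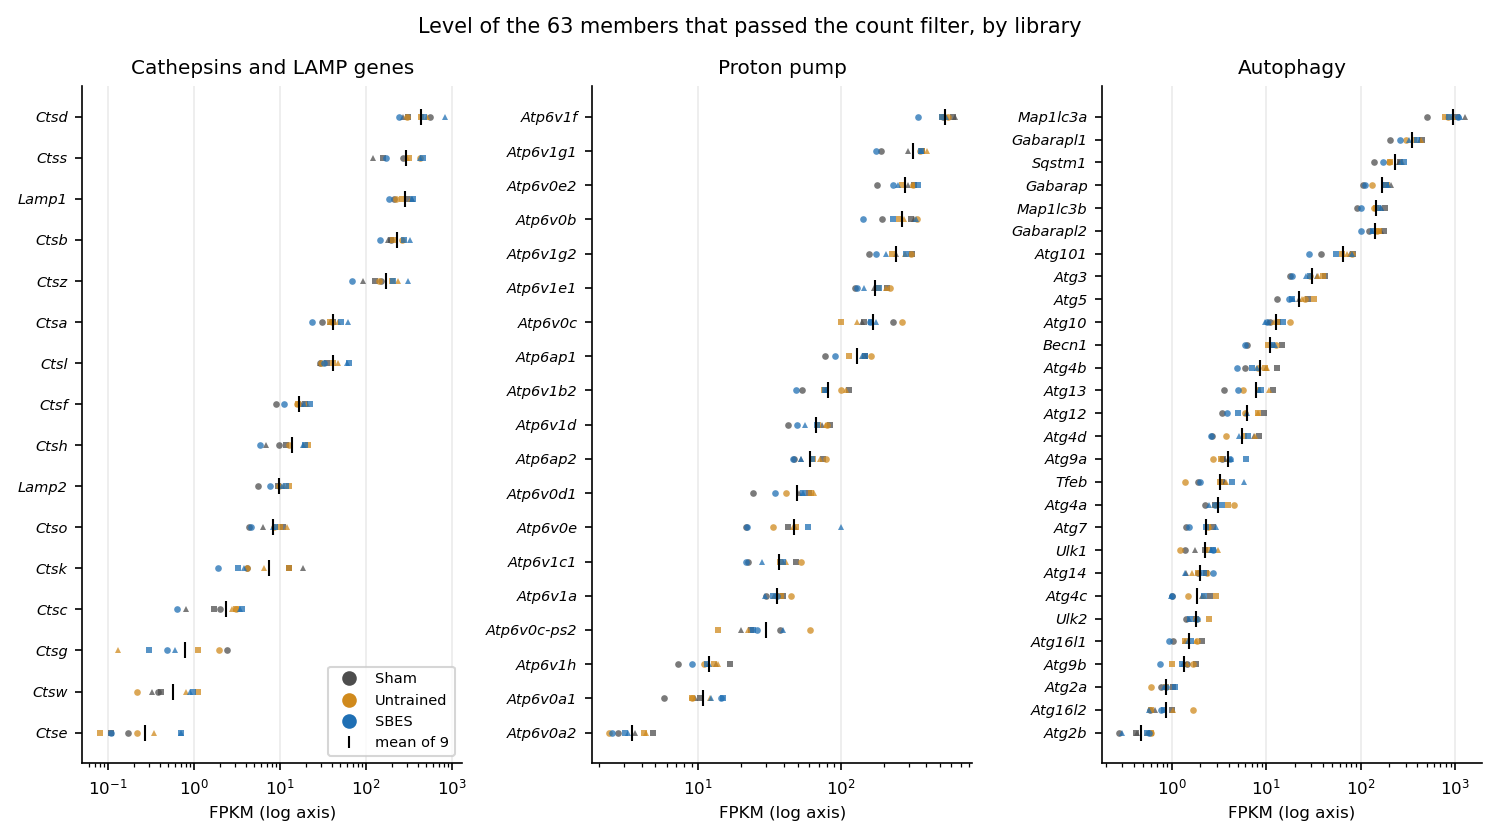
FPKM on a log axis for the 63 genes that passed the count filter, ordered by the mean over 9 libraries (black tick); colours are the groups and circle, square and triangle are libraries 1, 2 and 3, and values of 0 are not drawn. Map1lc3a and Atp6v1f lead their panels at means of 941 and 537 FPKM, and the points of the 3 groups are intermixed for most genes.

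Paralogous subunits took unequal shares of FPKM, which depend on the exonic lengths used. Of the V1 C, V1 E and V0 d subunits, Atp6v1c1, Atp6v1e1 and Atp6v0d1 took 99.6% to 100%, 99.8% to 99.95% and 95.8% to 100% of the FPKM of their family in the 9 libraries. Atp6v1b1, the B subunit known from the kidney and inner ear, took at most 0.116% of its family, the rest being Atp6v1b2, the form of the brain. The G subunits were mixed: Atp6v1g1 took 49.7% to 63.7% and the neuronal form Atp6v1g2 36.3% to 50.3%. Atp6v0e took 8.66% to 28.6% of the e family, the rest being the neuronal form Atp6v0e2. Map1lc3a took 84.4% to 91.4% of the LC3 pair with Map1lc3b, and Gabarapl1 47.2% to 56.1% of the GABARAP family. The high share of Map1lc3a rests on its shorter exonic length, since the CPM of the LC3 pair were similar. In all, 17 such shares were compared in 3 comparisons by an exact two-sided permutation test over libraries, whose smallest possible p with 3 against 3 libraries is 0.1. The groups did not overlap in 5 of the 51 share comparisons. When groups do not differ, 3 against 3 libraries separate fully at a rate of 0.1, which is near 5 in 51. No adjusted p fell below 0.927 in the exact test. With a smallest p of 0.1 this test could not pass a threshold of 0.05, so it cannot decide whether a share differed. The 51 are not independent, since shares such as those of Atp6v0a1 and Atp6v0a2 nearly mirror each other, and Atp6v1g3 was at 0 throughout.

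Untrained libraries were set against sham libraries to see the effect of the injury. No lysosome or autophagy gene rose or fell by the test used here, edgeR's quasi-likelihood test with Benjamini-Hochberg adjustment over the 15893 genes and a threshold of 0.05. That test called 0% of all genes in this comparison. At an unadjusted p under 0.05 it took 4.45% of all genes and 0 of the 63, and DESeq2 called 0.0857% of the genes it tested and 0 of the 63. The median log2 fold change was 0.25 over the 14 tested cathepsin genes, with 10 positive, beside -0.01 over all genes. It was 0.02 over the pump genes and -0.05 over the autophagy genes; scaling by library totals alone moved the all-gene median to 0.18 and these medians to 0.20 and 0.09, a change of sign for autophagy.

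Cathepsin values in sham split between library 1 and the other two. Ctss, on chr3:95526786-95556403 of mm10, was at 508, 187 and 159 CPM in sham 1 to 3, at 552, 370 and 371 CPM in untrained 1 to 3, and at 305, 572 and 575 CPM in SBES 1 to 3. Sham 2 and 3 lie below every other library, and sham 1 lies within the range of the injured groups, so sham and untrained overlap. The log2 fold change of Ctss in untrained against sham was 0.60 (SE 0.42, edgeR adjusted p = 1). Ctsd was at 1797, 626 and 604 CPM in sham, at 664, 881 and 1079 in untrained and at 752, 997 and 1907 in SBES; again sham 1 was high and the other two sham libraries lowest. Its log2 fold change in untrained against sham was -0.21 with TMM and 0.13 with library totals alone (SE 0.45 with TMM, edgeR adjusted p = 1). Ctsb, the main cysteine protease of lysosomes, was at 1626, 1023 and 1042 CPM in sham, 1523, 1080 and 1459 in untrained and 1162, 1536 and 1927 in SBES, with overlap between all groups. Ctsz was at 300, 159 and 129 CPM in sham, 193, 252 and 307 in untrained and 130, 268 and 441 in SBES, which also overlap.

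Markers of microglia and leukocytes also differed between the libraries. The 15 microglia markers, all counted in every library, summed to 2362, 961 and 864 CPM in sham 1 to 3, 1549, 1779 and 1963 CPM in untrained 1 to 3, and 1120, 2307 and 3805 CPM in SBES 1 to 3. Sham 1 and SBES 3, the libraries with most Ctsd, also had the highest marker sums, whereas untrained 1 had the most Ctss and Ctsb of its group and the lowest sum. The markers did not share a direction: 12 of 15 had positive fold changes in untrained libraries relative to sham, 7 in SBES relative to untrained and 9 in SBES relative to sham, and none passed edgeR. Between SBES and untrained libraries, DESeq2 called 1 of the 15, beside 0.192% of all genes. Of the 15, 4 were lower in SBES than in untrained without overlap, beside 4.76% of all genes, and 0 were higher. Relative to sham, 3 were higher in untrained and 1 was lower in SBES without overlap. In SBES 3 the complement genes C1qb and C1qa were at 1099 and 713 CPM. Genes of resting microglia went different ways there. P2ry12 was at 9.32 CPM, below the 12.7 to 21.2 CPM of sham, and Cx3cr1, at 32.4 CPM, lay within its sham range of 31.0 to 95.2. Tmem119 was at 45.8 CPM, above the 25.8 to 42.85 CPM of sham. Of 13 leukocyte markers, between 9 and 13 were counted in a library, and they summed to 2555, 101 and 49.0 CPM in sham, 860, 444 and 352 CPM in untrained, and 209, 427 and 631 CPM in SBES; the neutrophil gene S100a8 alone was at 1007 CPM in sham 1 and at 12.4 and 3.87 CPM in the other sham libraries. Among the leukocyte markers, 4 were at 0 in sham 2, including Elane and Mpo, which define neutrophil precursors and were at most 6.74 CPM in any library. The level of Ctss was 19.8 ± 1.58% of the microglia sum in sham (SD, n = 3), 25.1 ± 9.18% in untrained and 22.4 ± 6.41% in SBES, and that of Ctsz 14.8 ± 1.94%, 14.1 ± 1.58% and 11.6 ± 0.0319%. Ctsd was at 70.4 ± 5.48%, 49.1 ± 6.06% and 53.5 ± 12.3% of that sum in the same order. Ctsb was at 98.6 ± 26.7%, 77.8 ± 19.0% and 73.7 ± 27.2%, and Ctsa at 15.5 ± 6.18%, 10.3 ± 1.53% and 10.0 ± 2.85%. For Ctsd, untrained lay below sham without overlap. For Ctsz, SBES (11.57% to 11.63%) lay below all other libraries (12.46% to 16.58%). Further cathepsin ratios had groups without overlap, and how often this holds over all genes was not computed. The part of microglial and leukocyte RNA in the cathepsin values was not tested. Leaving out sham 1 raised the cathepsin median of untrained against sham from 0.25 to 0.69, and leaving out the 3 libraries numbered 1 raised it to 0.70. In that last fit, Ctss alone of the 76 genes rose by edgeR (log2 fold change 1.13, adjusted p = 0.0361), where 0.29% of all genes were called.

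**Figure D2:**
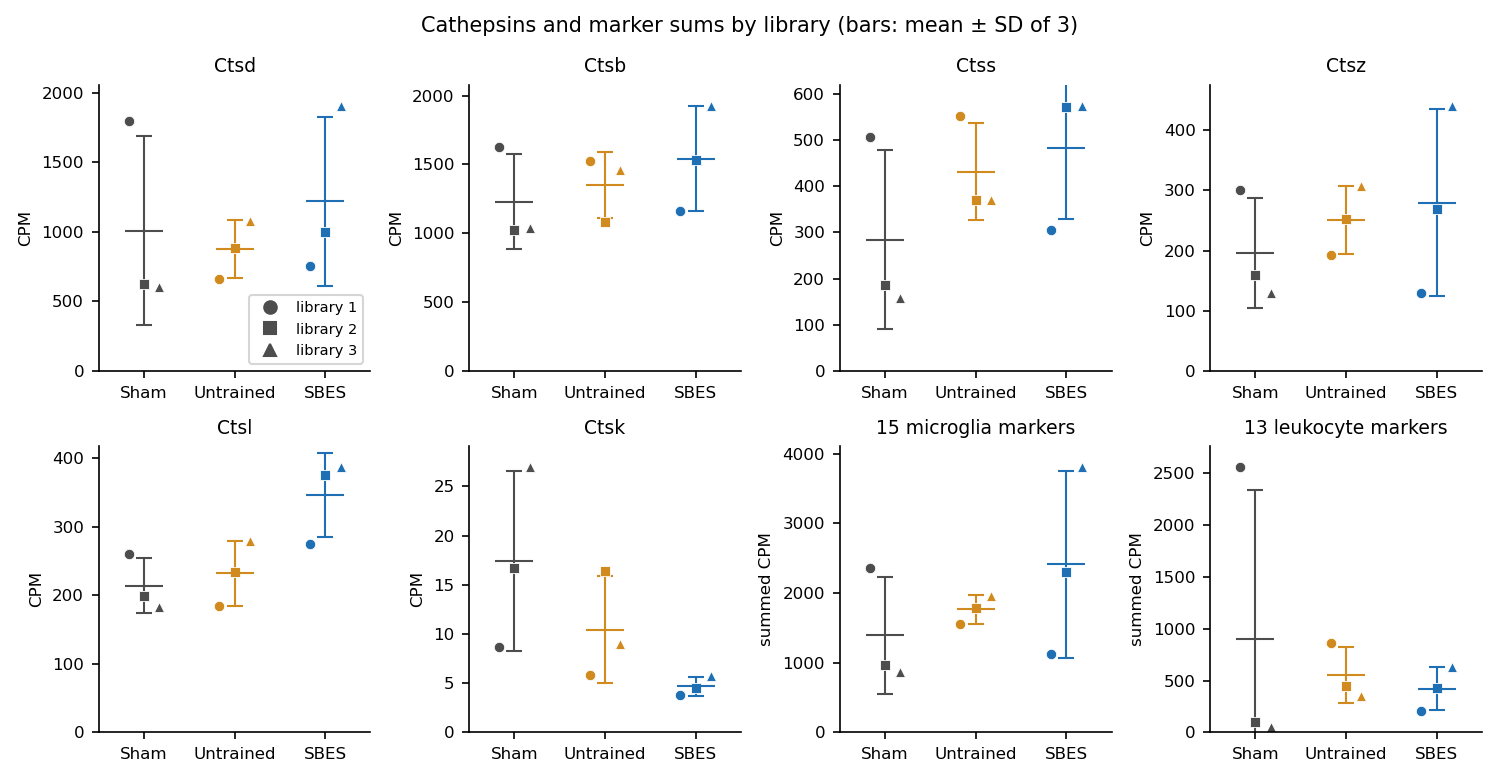
CPM of 6 cathepsin genes and the summed CPM of 15 microglia markers and of 13 leukocyte markers in each library; circle, square and triangle are libraries 1, 2 and 3, and bars are the mean ± SD of 3 libraries. Sham 1 lies above sham 2 and 3 for Ctsd, Ctsb, Ctss and Ctsz and for both sums, while Ctsk is lowest in the 3 SBES libraries, at 3.78 to 5.74 CPM.

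Other genes of lowest p in this comparison also missed the threshold. They were Ctsh, an aminopeptidase (log2 fold change 0.66, SE 0.35), Ctsk (-0.75, SE 0.43), Ctso (0.39, SE 0.24), and Atp6v1f (-0.33, SE 0.22), all with an edgeR adjusted p of 1. Groups without overlap were found for 3 of the 63 genes. Atg2b, one of a pair of lipid transfer proteins that feed the growing membrane, was higher in untrained (6.75 to 7.72 CPM) than in sham (4.88 to 5.61). Its paralog Atg2a was lower (4.49 to 6.21 against 6.53 to 8.27 CPM), as was Gabarapl2. Among all genes, 4.63% were higher and 5.13% lower without overlap, against 1.59% and 3.17% of the 63, so the members' shares were below the background. Lamp1 was at 703 to 883 CPM in sham and 572 to 814 in untrained, and Lamp2 at 72.1 to 92.0 and 87.7 to 105. The share of Lamp1 in the FPKM of the pair was 97.2 ± 0.250% (SD, n = 3) in sham and 96.0 ± 0.762% in untrained, without overlap (difference -1.18 points, exact permutation p = 0.1, adjusted p = 0.927).

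SBES libraries were set against untrained ones to see the effect of stimulation after the injury. None of the 63 tested genes passed edgeR, which called 0% of all genes; DESeq2 called 0.192% of all genes and none of the 63. At an unadjusted p under 0.05, 4 of the 63 genes (6.35%) and 5.37% of all genes were found by edgeR. The 4 were Atp6v0a1, Atg9a and Ctsl, higher in SBES, and Ctsk, lower. Higher values without overlap were found for 3 of the 63 (4.76%; all genes 5.66%) and lower values for 4 (6.35%; all genes 4.76%), which is near the background. The first were Atp6v0a1, Atg9a and Atg2a, and the second Ctsk, Atg3, Atg4b and Gabarapl2. The cathepsin median was 0.16, with 8 of 14 positive, but -0.16 without SBES 3 and -0.14 with limma on log2(FPKM + 1). The pump and autophagy medians were -0.04 and -0.06, beside 0.02 over all genes; with library totals alone they were both -0.26 while the all-gene median was -0.19. Both comparisons of the untrained group use the same 3 libraries, so their values are not independent.

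SBES against sham sets the stimulated injured group beside the uninjured one, with both injury and stimulation differing. By edgeR, 0 of the 63 genes were called, beside 0.346% of all genes, and DESeq2 called 1.8% of all genes and 1 of the 63, Ctsk. At an unadjusted p under 0.05 edgeR found 5 of the 63 (7.94%), beside 9.31% of all genes. Ctse, Ctsl and Atp6v0a1 were the higher ones and Ctsk and Atg4b the lower. Values without overlap were higher for 4 of the 63 (6.35%; all genes 7.1%) and lower for 5 (7.94%; all genes 6.74%), again near the background. The higher ones were Atp6v0a1, Ctsl, Ulk1 and Lamp2, and the lower ones Ctsk, Atg4b, Atg9b, Gabarapl2 and Atp6v0a2. Lamp2 was at 95.6 to 102 CPM in SBES and 72.1 to 92.0 CPM in sham (log2 fold change 0.29, SE 0.19, edgeR adjusted p = 0.718). The cathepsin median was 0.42 with 12 of 14 positive, beside 0.00 over all genes, -0.10 over the pump and -0.02 over the autophagy genes.

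**Figure D3:**
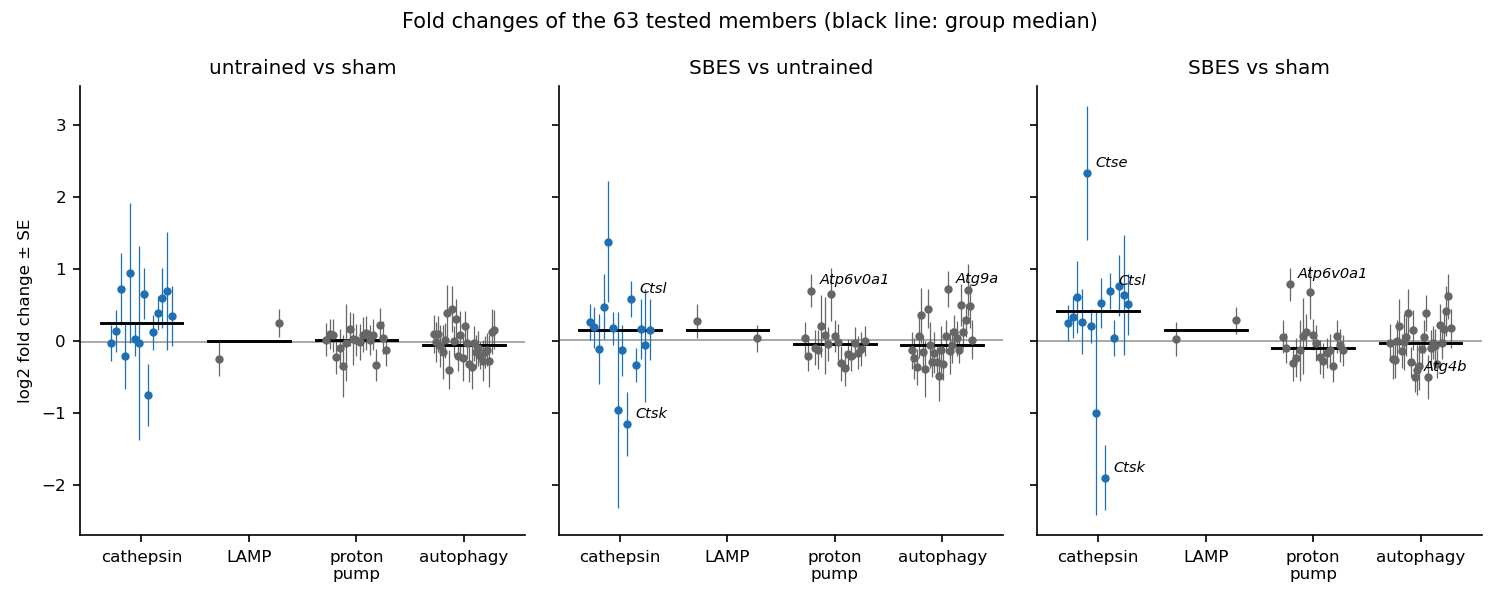
Log2 fold change ± SE of the 63 tested genes by group in the 3 comparisons; the black line is the group median, the grey line the median over all tested genes, and names mark genes with an unadjusted p under 0.05. The cathepsin median lies at 0.25, 0.16 and 0.42 from left to right and the pump and autophagy medians between -0.10 and 0.02.

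Ctsk was the gene of smallest p. It encodes cathepsin K, a collagen-degrading protease best known from osteoclasts, and lies at chr3:95499256-95509362, next to Ctss. It was at 8.70, 16.7 and 26.95 CPM in sham 1 to 3, at 5.87, 16.4 and 8.98 in untrained and at 3.78, 4.50 and 5.74 in SBES. All 3 SBES libraries lay below all 6 other libraries, although untrained 1 lay close to the highest of them. How often this holds over all genes was not computed. The log2 fold change in SBES against sham was -1.90 (SE 0.45), with an adjusted p of 0.118 by edgeR and 0.00435 by DESeq2. With the replicate number as a block, fitted over all 3 groups, it was -1.82 (edgeR adjusted p = 0.0319, 0.831% of all genes called). No label pairs libraries by number, and in SBES the number goes with the frequency, so this p-value rests on an assumed pairing. Without the count filter edgeR gave -1.88 (adjusted p = 9.05e-06; 1.63% of all genes called), and without the libraries numbered 1 it gave -2.08 (adjusted p = 0.00606). Leaving out 1 library at a time gave -2.19 to -1.44, with edgeR adjusted p-values of 0.0591 to 0.505. Against untrained the fold change was -1.15 (SE 0.44, edgeR adjusted p = 0.914). As a percent of the microglia sum Ctsk was 1.74 ± 1.38 in sham, 0.587 ± 0.295 in untrained and 0.228 ± 0.0976 in SBES (SD, n = 3). The 3 SBES libraries lay below the 6 others in this ratio as well. It reuses the same Ctsk values and divides them by a sum that was highest in SBES 3, so it is not separate support.

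Ctsl was the other cathepsin whose SBES and sham libraries did not overlap. This broad cysteine protease, at chr13:64359337-64370890, was at 260, 199 and 183 CPM in sham, 184, 233 and 279 in untrained and 275, 376 and 387 in SBES. Every SBES library exceeded every sham library, while SBES 1 lay just below untrained 3. Its log2 fold change was 0.69 against sham (SE 0.25, edgeR adjusted p = 0.358) and 0.58 against untrained (SE 0.25, edgeR adjusted p = 0.914). Ctss differed by 0.77 from sham (SE 0.42, edgeR adjusted p = 0.635) and by 0.17 from untrained (SE 0.42, edgeR adjusted p = 0.999). Ctse, an endosomal aspartic protease, was counted 36 times or fewer per library and gave 2.33 against sham (SE 0.93, edgeR adjusted p = 0.449), with 0 counts in sham 3.

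More cathepsins were called without the libraries numbered 1. Leaving out all 3 of them, edgeR called 7 of the 76 genes in SBES against sham, all cathepsins, where it called 3.58% of all genes. Ctss rose by 1.74 on the log2 scale (adjusted p = 0.00092), Ctsc by 1.57 (0.0131), Ctsz by 1.30 (0.0145), Ctsd by 1.25 (0.0322), Ctsh by 1.10 (0.021) and Ctsl by 1.00 (0.0142), and Ctsk fell by 2.08 (0.00606), all by edgeR with 2 libraries a group. For every gene that rose here, sham 1 was the highest sham library and SBES 1 the lowest SBES library. Leaving them out enlarged these differences through the choice of libraries, so the calls are not separate support for a rise. Ctsc was at 16.0, 8.62 and 4.46 CPM in sham 1 to 3 and 4.78, 19.25 and 19.4 in SBES 1 to 3. Ctsh was at 59.9, 46.4 and 29.4 CPM in sham and 34.3, 80.0 and 81.3 in SBES. The microglia sums of the libraries kept were 961 and 864 CPM in sham and 2307 and 3805 CPM in SBES. The cathepsin median was 1.10 without the libraries numbered 1, 0.87 without sham 1 alone and 0.16 without SBES 3. In SBES against untrained, 0 of the 76 genes and 0.0802% of all genes were called without the libraries numbered 1.

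In the proton pump, 1 subunit gene had an unadjusted p under 0.05 by edgeR. Atp6v0a1 encodes the V0 a1 subunit, the form of synaptic vesicles and neuronal lysosomes, and lies at chr11:101009452-101063719. It was at 51.3, 58.2 and 59.8 CPM in sham, 56.4, 51.4 and 71.7 in untrained and 125, 88.3 and 78.9 in SBES. All 3 SBES libraries lay above all 6 others, and SBES 1, the 10 Hz library with a low TMM factor, was highest. The share of all genes with such a separation was not computed. The log2 fold change was 0.79 against sham (SE 0.23, adjusted p = 0.229 by edgeR and 0.0947 by DESeq2) and 0.70 against untrained (SE 0.23, edgeR adjusted p = 0.867). Without the libraries numbered 1 it was 0.51 against sham (edgeR adjusted p = 0.251), and with each library left out in turn it stayed between 0.59 and 0.92.

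The a subunits were also compared as shares within a library, which do not depend on library scaling. Atp6v0a1 took 67.3%, 68.0% and 72.6% of the FPKM of the a family in sham 1 to 3, 79.1%, 68.5% and 73.8% in the untrained libraries and 85.5%, 82.7% and 79.1% in SBES. Every SBES share exceeded every other share, untrained 1 and SBES 3 being almost equal at 79.11% and 79.13%. The mean share was 82.5 ± 3.18% in SBES, 73.8 ± 5.29% in untrained and 69.3 ± 2.91% in sham (SD, n = 3). The difference was 13.1 points from sham and 8.65 points from untrained, each with the smallest p the exact permutation test can give, 0.1, and an adjusted p of 0.927 in both. Atp6v0a2, the form of the Golgi and endosomes, had the complementary share, 30.6 ± 2.79% in sham and 17.5 ± 3.18% in SBES, and its own level was 23.1 to 28.1 CPM in sham and 18.8 to 21.8 CPM in SBES, without overlap (log2 fold change -0.31, edgeR adjusted p = 0.774).

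**Figure D4:**
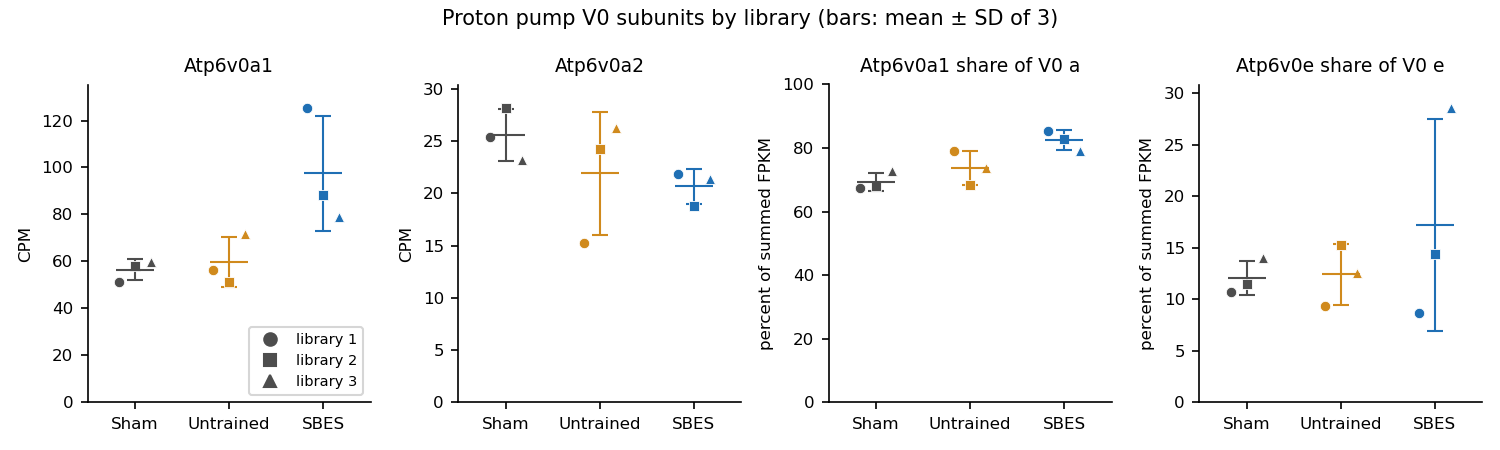
CPM of Atp6v0a1 and Atp6v0a2, the share of Atp6v0a1 in the summed FPKM of the V0 a subunits, and the share of Atp6v0e in that of the V0 e subunits, by library; circle, square and triangle are libraries 1, 2 and 3, and bars are the mean ± SD of 3. The Atp6v0a1 shares of SBES, at 79.1% to 85.5%, lie above the sham shares of 67.3% to 72.6%, and the Atp6v0e share is highest in SBES 3 at 28.6%.

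No other pump gene had an unadjusted p under 0.05 by edgeR. Atp6v0e, whose promoter is among those printed above, was at 111, 137 and 171 CPM in sham, 117, 157 and 156 in untrained and 108, 199 and 366 in SBES. The groups overlap, and SBES 3 alone held the high value: the log2 fold change against sham was 0.68 (SE 0.37, edgeR adjusted p = 0.624) and was 0.14 without SBES 3. Atp6v0c was highest in the library numbered 1 of each group, at 1088, 869 and 721 CPM beside 295 to 588 CPM in the other 6. Atp6v1c1, a V1 subunit, was at 172 to 237 CPM in sham, 182 to 279 in untrained and 155 to 201 in SBES, with overlap.

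The autophagy genes had no common direction, and none passed the threshold. Ulk1, the starting kinase, at chr5:110784488-110810097, was at 12.5, 12.7 and 11.0 CPM in sham, 7.59, 14.1 and 17.95 in untrained and 23.2, 16.1 and 16.6 in SBES. All SBES libraries lay above sham but not above untrained 3, and the log2 fold change against sham was 0.62 (SE 0.31, edgeR adjusted p = 0.574). Ulk2 differed from sham by 0.18 (SE 0.27, edgeR adjusted p = 0.904). The share of Ulk1 in the FPKM of the pair was 53.0 ± 3.18% in sham and 60.7 ± 2.42% in SBES (SD, n = 3), without overlap, a difference of 7.68 points (exact permutation p = 0.1, adjusted p = 0.927).

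Atg9a encodes the membrane protein whose vesicles seed the autophagosome. It was at 27.3, 17.4 and 21.7 CPM in sham, 15.1, 16.6 and 21.2 in untrained and 31.4, 31.9 and 23.8 in SBES. SBES lay above untrained without overlap and overlapped with sham, and the log2 fold change against untrained was 0.72 (SE 0.25, edgeR adjusted p = 0.882). Its paralog Atg9b was at 5.34 to 7.83 CPM in sham, 3.39 to 6.33 in untrained and 3.89 to 5.06 in SBES, with a log2 fold change of -0.50 against sham (SE 0.31, edgeR adjusted p = 0.697). Tfeb was at 14.7, 17.1 and 20.0 CPM in sham, 7.52, 15.7 and 19.4 in untrained and 14.9, 22.4 and 32.1 in SBES. These groups overlap, and its log2 fold change against untrained was 0.71 (SE 0.36, edgeR adjusted p = 0.954).

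Gabarapl2, a member of the ATG8 family at chr8:111940703-111953612, had closely spaced values within each group. It was at 389.5, 359 and 369 CPM in sham, 327, 316 and 329 in untrained and 308, 283 and 302 in SBES. Each group lay below the one before it without overlap, but the steps were small: log2 fold changes were -0.20 in untrained against sham (edgeR adjusted p = 1) and -0.32 in SBES against sham (SE 0.19 each, edgeR adjusted p = 0.67). With library totals alone the first of these was -0.01. How many of all genes step in this way was not computed. Atg4b, the protease that primes and recycles LC3 and GABARAP proteins, was at 68.2, 94.4 and 79.0 CPM in sham, 64.9, 69.2 and 75.8 in untrained and 53.6, 53.2 and 64.3 in SBES. SBES lay below both other groups, with a log2 fold change of -0.50 against sham (SE 0.21, edgeR adjusted p = 0.485) and -0.29 against untrained (SE 0.21, edgeR adjusted p = 0.993).

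Other core autophagy genes overlapped between all groups. Sqstm1, the cargo receptor p62, was at 633 to 832 CPM in sham, 592 to 837 in untrained and 756 to 886 in SBES. Becn1, of the lipid kinase complex, was at 60.9 to 90.2, 63.6 to 85.2 and 55.7 to 85.9 CPM, and Atg7, the enzyme that activates LC3 and GABARAP proteins, at 13.6 to 16.6, 14.7 to 15.97 and 13.8 to 20.0 CPM in the same order. Atg5, part of the complex that places LC3 on membranes, was at 42.2 to 56.8, 50.4 to 64.9 and 40.0 to 53.5 CPM. Map1lc3a was at 821 to 1439 CPM in sham, 802 to 1021 in untrained and 919 to 1679 in SBES. Their log2 fold changes lay between -0.32 (Atg5, SBES against untrained) and 0.50 (Map1lc3a, SBES against untrained).

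**Figure D5:**
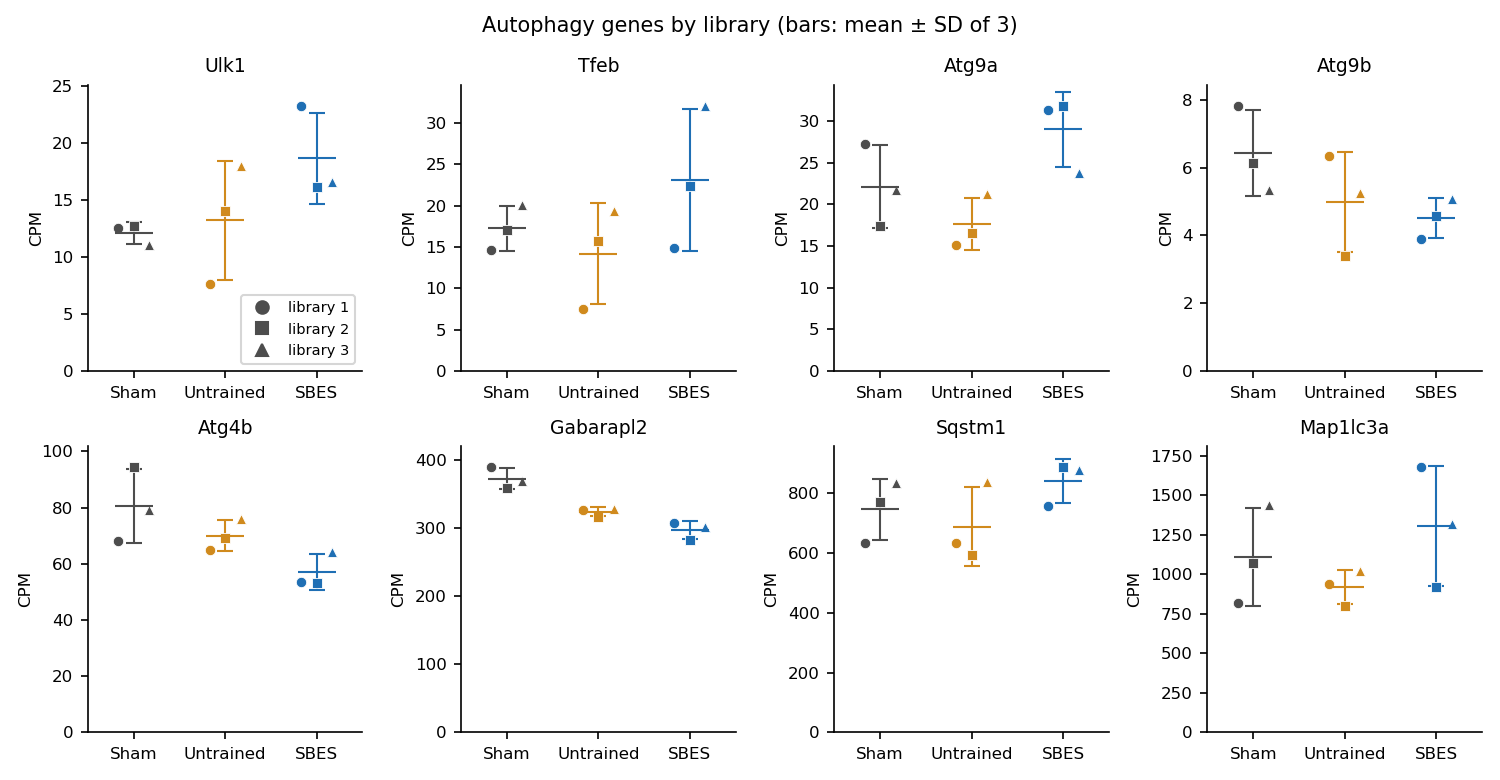
CPM of 8 autophagy genes by library; circle, square and triangle are libraries 1, 2 and 3, and bars are the mean ± SD of 3. Ulk1 in SBES (16.1 to 23.2 CPM) lies above sham (11.0 to 12.7 CPM), Gabarapl2 steps down from 359 or more CPM in sham to 308 or fewer in SBES, and Sqstm1 and Map1lc3a overlap between groups.

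Wider lists of the pathway gave few calls. Of 41 other lysosomal hydrolases and activators, 32 genes of the lysosomal membrane and its trafficking and 30 other autophagy genes, edgeR called none in any comparison; at an unadjusted p under 0.05 it found 3, 1 and 1 of them in untrained against sham, 3, 0 and 1 in SBES against untrained and 6, 0 and 0 in SBES against sham. Of 27 tested genes around TFEB and mTORC1, edgeR called 1, Ddit4, a stress-induced inhibitor of mTORC1. It was at 6.06 ± 0.925 CPM in sham, 10.1 ± 3.15 in untrained and 31.3 ± 8.17 in SBES (SD, n = 3), and rose in SBES against sham by 2.36 on the log2 scale (SE 0.30, edgeR adjusted p = 0.0149). The call was lost when any of these libraries was left out: edgeR gave an adjusted p of 0.0731 without sham 2, 0.0945 without sham 3 and 0.0586 without SBES 3. Few calls of any gene remained in such fits: edgeR called 6 genes without sham 2 and 0 without sham 3. The log2 fold change of Ddit4 stayed between 2.20 and 2.55 with each library left out in turn. With all libraries, DESeq2 gave it an adjusted p of 7.52e-10. Against untrained the change was 1.63 (SE 0.29, adjusted p = 0.456 by edgeR and 0.00117 by DESeq2). Of 6 tested cathepsin inhibitors none passed edgeR in any comparison, and DESeq2 called Serpina3n in SBES against sham (80.9 ± 47.1 and 267 ± 138 CPM, log2 fold change 1.72, SE 0.45, adjusted p = 0.00629 by DESeq2 and 0.16 by edgeR).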

How the data were processed

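Per the labels' protocols the authors aligned paired-end reads with Hisat2 2.0.1 and counted genes with HTSeq 0.6.1; mm10 is the genome build in the submitters' processing notes. They deposited whole-number counts and FPKM per gene and library, and FPKM recomputed from counts and exonic lengths matched within 0.006 for 100% of values. For the strand setting and annotation release, no source used here gives a value. All 76 positions equal GENCODE M21. Columns of the untrained libraries and of SBES 1 were matched by elimination.

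Counts of all 9 libraries entered 1 fit in edgeR 4.0.16 (R 4.3.3): filterByExpr, TMM, a coefficient per group, quasi-likelihood test, Benjamini-Hochberg adjustment, threshold 0.05. CPM use TMM-scaled totals. Alternatives used DESeq2 1.42.0, limma 3.58.1 on log2(FPKM + 1) and log2(FPKM + 0.1), other scalings, no filter, 2-group fits, left-out libraries and a replicate block. Deviations from group means of same-numbered SBES and sham libraries correlated at 0.374, 0.205 and 0.211. Each SBES library correlated best with the sham library of its number, so the block is given there. No label states such a pairing, and the block fit holds all 9 libraries, the untrained ones too.

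The genes and lists were chosen with earlier results of these data known. Named genes are those called, the 4 of highest mean FPKM per group, the 6 of smallest p per comparison among those that average 1 FPKM or more in a group, paralogs and fixed reference genes; not every gene the rule covers is described, and 1 result is not reported here.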

Additional observations from a re-analysis of the deposited data

How the results depend on the processing

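Without the count filter edgeR called 134, 186 and 517 genes in untrained against sham, SBES against untrained and SBES against sham, where filtered counts gave 0, 0 and 55; 2 of the lysosome and autophagy genes were among the last, Ctsk and Ctse (log2 fold change 2.36, adjusted p = 0.0356). DESeq2 called 14, 29 and 283 genes, with 1 member, Ctsk. Scaling by library totals gave 1 call in untrained against sham, and limma on log2(FPKM + 1) gave 1 for SBES and untrained and 19 for SBES and sham; with a pseudocount of 0.1 it gave 1 in untrained against sham and 17 in SBES against sham.

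The pump and autophagy medians were 0.20 and 0.09 in untrained against sham and -0.26 and -0.26 in SBES against untrained with library totals, 0.23, 0.12, -0.24 and -0.19 with limma and a pseudocount of 1, and 0.23, 0.18, -0.26 and -0.30 with 0.1. These scalings leave out the TMM factor. Without the 3 libraries numbered 1, edgeR called 47, 13 and 581 genes and 1, 0 and 7 members, and the cathepsin medians against sham were 0.70 and 1.10. With 1 library left out, the cathepsin median ranged from 0.12 (without sham 3) to 0.69 (without sham 1) in untrained against sham and from 0.16 (without SBES 3) to 0.87 (without sham 1) in SBES against sham. All genes called ranged from 0 (without sham 3) to 86 (without SBES 1) in SBES against sham and from 0 to 1 in SBES against untrained; no member was called in any of these fits. The cause of these changes was not tested.

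With a replicate block, edgeR called 4 genes in untrained against sham and 132 in SBES against sham, with 1 member, Ctsk; it changed no other call of a member. Same-numbered libraries of untrained and sham correlated at 0.469, 0.0785 and 0.297 and those of SBES and untrained at 0.26, -0.137 and 0.249. In both, not every library correlated best with the one of its number, so the number is not taken to pair them. The correlations of untrained and sham were not lower throughout than those of SBES and sham, so the grounds for the block are weak. Of the share differences, 353 moved by less than 1 SD and 4 did not, all with CPM in place of FPKM: Lamp1 gave -3.54 points in untrained against sham, 1.74 for SBES and untrained and -1.80 for SBES and sham, and Map1lc3a 6.04 points for SBES and untrained.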
